A study of Mus musculus with 2 samples.

Results

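Serine palmitoyltransferase starts the making of all sphingolipids, and the genes described here are its subunits together with genes of ceramide synthesis and of the lipid barrier of skin and hair. The members were chosen by name, as the 10 genes Sptssa, Sptssb, Sptlc1, Sptlc2, Ugcg, Cers3, Cers4, Elovl4, Abca12 and Alox12b, with the values on these arrays already known. All 10 are on the array, out of 18193 genes named there, and they are read by 22 probe sets. Because the low signal of Sptssb was known when the members were picked, that value is a description and supports nothing by itself.

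The study set hair follicles of dnFGFR2-IIIb transgenic mice against follicles of wild-type mice, to look for genes downstream of the IIIb splice form of fibroblast growth factor receptor 2, a receptor of epithelial cells. The name dnFGFR2-IIIb is usually read as a dominant-negative form of the receptor, and the labels give neither the promoter that drives it, nor the founder line, nor the strain. Each group is 1 Affymetrix array of total RNA from follicles collected at postnatal day 10. About 100 follicles from each of 3 mice, born in different litters, were pooled, which makes about 300 per array. With 1 array per group there is no replicate spread and no p-value, pooling hides the differences between mice, and array and genotype cannot be told apart. In such bulk RNA, fewer cells of a type and less RNA per cell cannot be told apart either.

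In sphingolipid synthesis, serine palmitoyltransferase joins serine to a fatty acyl-CoA, a reductase and a ceramide synthase turn the product into dihydroceramide, and a desaturase completes ceramide. Keratinocytes then add glucose, load the lipid into lamellar granules and release it, and ceramides carrying very long fatty acids end up between and on the surface of the cornified cells. Mice with defects in several of these steps lose water through the skin or lose hair.

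Signals are linear intensities in arbitrary units, scaled so that the trimmed mean is the same on both arrays. A signal over a floor of 10.5, the 40th percentile of all signals, is called measured, and a gene is called higher or lower when it was measured on both arrays with signals at least 2-fold apart. The brightest probe set by mean signal represents a gene unless another is named, and signals of different probe sets are not compared as levels. Fgfr2 read 368 on the transgenic and 197 on the wild-type array at its brightest probe set, and whether the transgene holds that probe set's target is not known here. The pools differed in sex-linked RNA: Xist, made from the inactive X chromosome, read 1146 on the transgenic and 352 on the wild-type array, and the Y-linked Eif2s3y was not measured on the transgenic array and read 191 on the wild-type array. The part of this difference in the results was not tested. The brightest of 27 control probe sets with no mouse target read 15.8 on the transgenic and 8.50 on the wild-type array, so signals near the floor are close to background. The 3' to 5' signal ratio of beta-actin, a measure of RNA integrity, was 2.06 on the transgenic and 1.89 on the wild-type array.

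Of the 10 members, 8 were measured on both arrays, 1 (Abca12) on the transgenic array only and 1 (Alox12b) on neither. Sptssb and Cers4 were lower by 2-fold or more in the transgenic follicles, 0 members were higher by as much, and 6 differed by less. Over all 11565 genes measured on both arrays, 183 (1.58%) were lower and 185 (1.6%) higher by this rule, together 3.18%. Counted by probe set, 3 of the members' 17 measured on both arrays were lower and 0 higher, against 1.62% lower and 2.45% higher among all 23511 such probe sets. The direction of these calls varied with the scaling, at 115 higher and 296 lower at equal medians, 140 and 231 after quantile normalization, 119 and 257 after loess, and 315 and 103 at equal spiked controls. Since the members were picked with these values in view, their count cannot be read against the shares over all genes. The median log2 ratio, transgenic over wild-type, was -0.03 over the 9 members measured on 1 array or both and 0.01 over all 14045 such genes. The ratios of most members were therefore near that of the bulk of genes, and the low values belonged to Sptssb and Cers4.

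**Figure D1:**
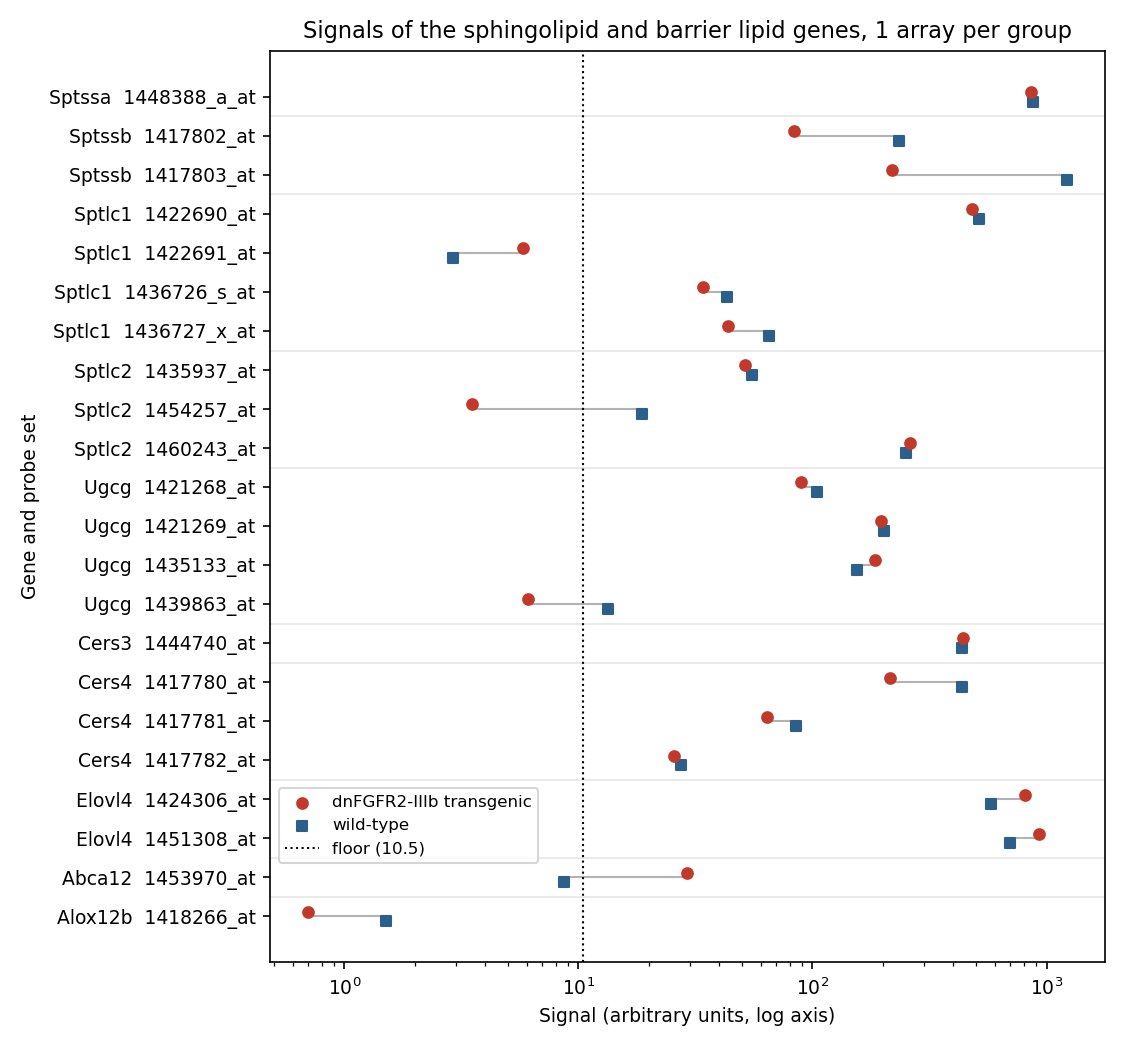
Signal of each of the 22 probe sets of the members (x axis, arbitrary units, log scale) on the transgenic array (red circles) and the wild-type array (blue squares), 1 array per group, joined by a grey line. Both Sptssb probe sets lie to the left on the transgenic array, at 83.2 and 219, against 233 and 1221 for wild-type. Sptssa lies at 859 on the transgenic and 874 on the wild-type array, and the dotted line is the floor of 10.5.

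The serine palmitoyltransferase complex has a pair of large subunits that hold the active site and a small subunit that stimulates it and shapes which acyl-CoA it takes. Sptssa and Sptssb encode the alternative small subunits, and they differed between the arrays in unlike ways. Sptssb, at probe set 1417803_at, read 219 on the transgenic array, against 1221 on the wild-type array, a log2 ratio of -2.48 or 5.59-fold lower. Its other probe set, 1417802_at, read 83.2 on the transgenic and 233 on the wild-type array, a log2 ratio of -1.49. Both probe sets were thus lower by more than 2-fold, by different amounts, and both are listed under the same transcript record in the platform annotation, so that they are not independent. Among the 11565 genes, the Sptssb ratio ranked 9 from the lowest. Of the lower genes, 45 had a second probe set measured on both arrays, and Sptssb is 1 of the 12 in which such a probe set also passed 2-fold.

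Sptssa, read by the single probe set 1448388_a_at, gave 859 on the transgenic and 874 on the wild-type array, a log2 ratio of -0.03. The small subunit genes therefore had ratios of different size within the same arrays, a contrast that a constant factor per array does not alter. As a yardstick for the scatter between probe sets, log2 ratios of probe sets that read the same gene were compared. Their SD was 0.29 for bright probe sets (mean signal over 182), 0.37 for those between 48.7 and 182, and 0.51 for dimmer ones. This spread lies between probe sets on the same arrays and can include differences between transcripts of a gene. It leaves out the differences between arrays and between mice. The Sptssb ratios were larger than this SD at both probe sets, and the Sptssa ratio was not. The ratio of the brightest Cers4 probe set (-1.03) and those of both Elovl4 probe sets (0.41 and 0.49) were also larger. Since Sptssb was picked with its value known, this is a description and no support.

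The promoters of the small subunit genes are shown because these alternative subunits differed in ratio. Each is the stretch of 250 bases before the gene start in RefSeq (build GRCm38.p6), 5′ to 3′ on the gene's strand, at chr3:69859895-69860144 (minus strand) for Sptssb and chr12:54656573-54656822 (minus strand) for Sptssa. Capitals mark matches, on either strand, to any of the motifs searched. The promoter box of that name was searched as TATAAA, and the box bound by nuclear factor Y as CCAAT. Sites of the AP-1 factors were searched as TGANTCA, the core letters of FOXN1 sites as ACGC, and GATA factor sites as AGATAA.
Sptssb: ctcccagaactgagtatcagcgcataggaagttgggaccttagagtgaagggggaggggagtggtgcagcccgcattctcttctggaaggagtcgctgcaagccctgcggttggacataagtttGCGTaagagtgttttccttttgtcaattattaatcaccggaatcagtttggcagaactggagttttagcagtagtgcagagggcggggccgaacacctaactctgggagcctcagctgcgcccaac
Sptssa: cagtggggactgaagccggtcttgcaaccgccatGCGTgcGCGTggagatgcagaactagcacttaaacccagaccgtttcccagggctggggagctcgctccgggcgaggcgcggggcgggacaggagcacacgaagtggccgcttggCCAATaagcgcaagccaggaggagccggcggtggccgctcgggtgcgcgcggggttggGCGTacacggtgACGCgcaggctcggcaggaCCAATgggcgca
The Sptssb window held 1 match to ACGC and 0 to the other motifs, whereas the Sptssa window held 4 matches to ACGC and 2 to CCAAT. The G and C content was 53.2% in the Sptssb window and 68.8% in the Sptssa window, against a median of 52.4% over 32851 windows. ACGC is a common string, present in 55.3% of all windows of 300 bases (250 before the gene start and 50 after it), and CCAAT was in 37.4%. A match is a description of letters and not a binding site.

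The large subunit genes read alike on both arrays at their brightest probe sets. Sptlc1, the subunit shared by all forms of the enzyme, read 481 on the transgenic and 514 on the wild-type array, a log2 ratio of -0.10, which became 0.10 at equal spiked controls. The probe sets 1436726_s_at and 1436727_x_at, of kinds that can also match further transcripts, gave log2 ratios of -0.34 and -0.58 at signals of 65.3 or less, and the remaining 1 was measured on neither array. Sptlc2, which carries the cofactor, read 262 on the transgenic and 250 on the wild-type array, a log2 ratio of 0.07 that became -0.08 at equal medians. Its probe set 1435937_at gave -0.10, and another, 1454257_at, was not measured on the transgenic array and read 18.6 on the wild-type array. The mean over its probe sets gave -0.82. It takes in this last one at its transgenic signal of 3.5, which was not raised to the floor. The main probe sets of both large subunits were within the spread between probe sets, while the mean over the Sptlc2 probe sets drew on a signal under the floor.

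Sptlc3, an alternative large subunit and no member, was the only gene of the fixed list of the enzyme and its regulators to be higher by 2-fold or more. It read 54.2 on the transgenic and 21.4 on the wild-type array, a log2 ratio of 1.34, and its second probe set was measured on neither array. Both signals were dim, and the ratio rests on this probe set alone. Ormdl1, which restrains the enzyme, read 557 on the transgenic and 633 on the wild-type array (log2 ratio -0.18), and Kdsr, the reductase of the next step, read 198 on the transgenic and 145 on the wild-type array, a log2 ratio of 0.45 with -0.12 and -0.28 at its other probe sets. Of the 7 genes of this list with a probe set, 1 was higher, 1 lower and 5 neither, and their median log2 ratio of -0.03 became 0.17 at equal spiked controls.

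**Figure D2:**
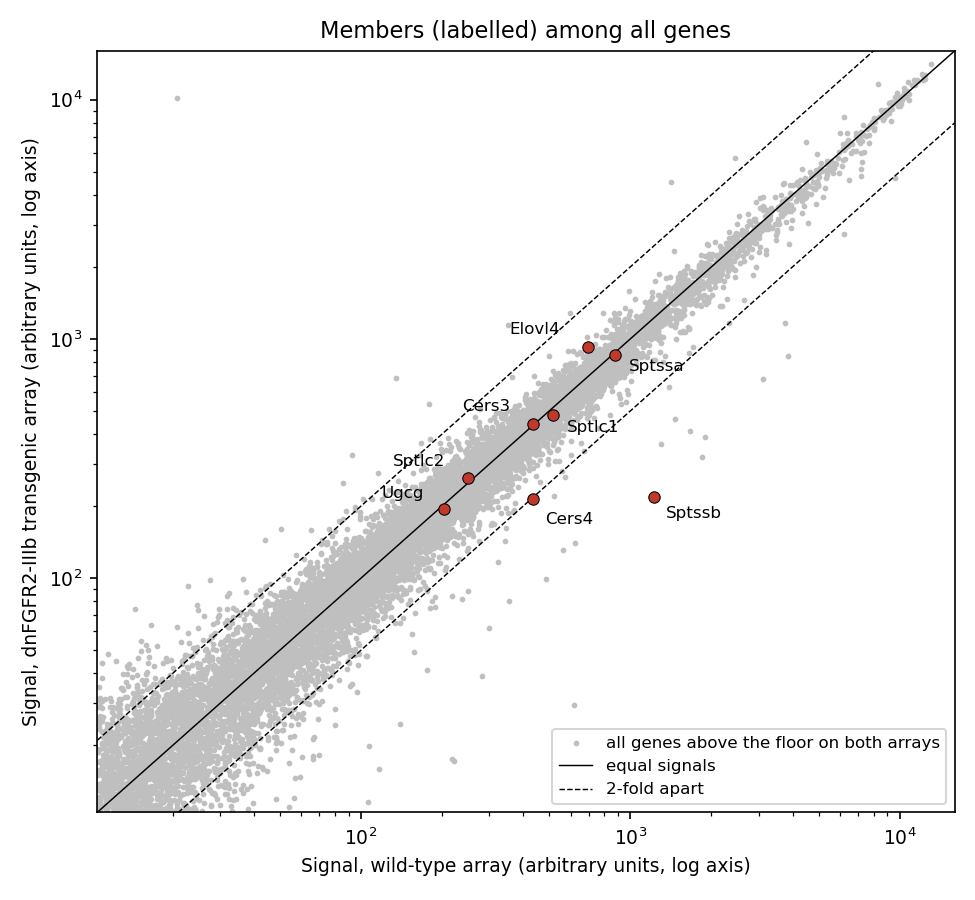
Signal of each of the 11565 genes measured on both arrays (grey points), on the transgenic array (y axis) against the wild-type array (x axis), in arbitrary units on log scales, with 8 members labelled in red. Sptssb lies far below the lower 2-fold line (219 against 1221), Cers4 lies on it (214 against 436), and the other 6 lie between the 2-fold lines.

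Ceramide synthases attach the fatty acid, and each takes chains of a preferred length. Cers3 makes the ceramides with the longest chains, which the skin barrier needs, and Cers4 uses long chains and is required in mice for a lasting hair coat. Cers4, at probe set 1417780_at, read 214 on the transgenic array, against 436 on the wild-type array, a log2 ratio of -1.03 or 2.04-fold lower. Probe set 1417781_at read 63.8 on the transgenic and 85.0 on the wild-type array (log2 ratio -0.41), and 1417782_at read 25.7 on the transgenic and 27.3 on the wild-type array (-0.09). All 3 ratios were under 1, the dimmer the probe set the nearer to 1, and only the brightest passed 2-fold, by a small margin. The 3 probe sets are listed under 1 transcript record. At equal spiked controls the brightest gave -0.83 and with the mean over probe sets the gene gave -0.51, so that the 2-fold call of Cers4 was lost in both.

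Cers3, read by 1 probe set, gave 441 on the transgenic and 435 on the wild-type array, a log2 ratio of 0.02, which became -0.12 at equal medians. Among the other synthases, Cers2 read 32.7 on the transgenic and 46.3 on the wild-type array (log2 ratio -0.50), Cers6 read 71.3 on the transgenic and 55.5 on the wild-type array (0.36), and Cers5 had 0.09. Degs1, the desaturase that completes ceramide, had a log2 ratio of -0.10. Degs2, which adds a hydroxyl group, was not measured on the transgenic array and barely over it on the wild-type array. Over the 7 synthases and desaturases with a probe set, 0 were higher and 1, Cers4, lower by 2-fold, with a median of -0.10 that became 0.09 at equal spiked controls.

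The promoters of this pair are shown in the same way, at chr8:4493155-4493404 (plus strand) for Cers4 and chr7:66743254-66743503 (plus strand) for Cers3.
Cers4: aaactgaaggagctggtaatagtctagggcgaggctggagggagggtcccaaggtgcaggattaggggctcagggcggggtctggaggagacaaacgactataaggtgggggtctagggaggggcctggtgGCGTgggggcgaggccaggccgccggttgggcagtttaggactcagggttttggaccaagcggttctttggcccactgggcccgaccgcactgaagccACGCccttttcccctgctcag
Cers3: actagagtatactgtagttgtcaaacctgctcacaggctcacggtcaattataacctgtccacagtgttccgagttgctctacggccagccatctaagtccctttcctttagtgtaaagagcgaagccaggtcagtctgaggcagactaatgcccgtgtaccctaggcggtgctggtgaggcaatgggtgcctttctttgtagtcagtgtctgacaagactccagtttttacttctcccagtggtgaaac
The Cers4 stretch held 2 matches to ACGC, and the Cers3 stretch held 0 to any of the motifs. In windows of 300 bases, 8 of the 10 members had ACGC, 4 had CCAAT, 1 had AGATAA, and 0 had TATAAA or TGANTCA. The shares of all windows with these motifs were, in the same order, 55.3%, 37.4%, 11.2%, 13.6% and 7.81%. The motifs did not separate Sptssb and Cers4 from the other members, since ACGC was also in the windows of genes with ratios near 1, such as Sptssa and Sptlc1.

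Ugcg, which adds glucose to ceramide and so makes the form that lamellar granules carry, read alike on both arrays. Its brightest probe set read 195 on the transgenic and 203 on the wild-type array, a log2 ratio of -0.05 that became 0.14 at equal spiked controls. Probe set 1435133_at read 185 on the transgenic and 155 on the wild-type array (0.25), and 1421268_at read 88.9 on the transgenic and 105 on the wild-type array (-0.24). The 3 probe sets thus scattered on both sides of a ratio of 1, and the remaining 1 was not measured on the transgenic array and read 13.4 on the wild-type array.

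Elovl4, which lengthens fatty acids to the very long chains of barrier ceramides, was the one member with several probe sets whose ratios were all above 1. Probe set 1451308_at read 927 on the transgenic and 697 on the wild-type array, and 1424306_at read 811 on the transgenic and 577 on the wild-type array. Their log2 ratios of 0.41 and 0.49 were alike, under 2-fold, and came from probe sets listed under 1 transcript record. Across 11 other settings the ratio of the gene stayed positive, from 0.27 at equal medians to 0.61 at equal spiked controls. Several of these settings, such as the other floors, could not change it. Of the 14 genes of fatty acid elongation measured on both arrays, 0 passed 2-fold in either direction. Elovl4 had the highest ratio among them, and Hacd4, a dehydratase of the elongation cycle, the lowest, at 39.2 on the transgenic and 59.7 on the wild-type array (-0.61). Hacd1, of the same family, had -0.43 at both probe sets, and Slc27a4, a fatty acid transporter and acyl-CoA synthetase needed for the barrier, had -0.32. The list's median was -0.04 and became 0.16 at equal spiked controls.

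Abca12, the transporter that loads glucosylceramide into lamellar granules, was dim. Its single probe set read 29.0 on the transgenic array and 8.70, below the floor, on the wild-type array, a ratio of at least 2.76-fold higher. Such a ratio against the floor was not rare, since of 1432 genes measured on the transgenic array only, 214 (14.9%) lay 2-fold or more over the floor. With the floor at the 60th percentile the bound shrank to a log2 ratio of 0.07. Alox12b, a lipoxygenase that oxidises the linoleate of acylceramides, read 0.70 on the transgenic and 1.5 on the wild-type array, both under the floor, and no ratio is given. Its partner enzyme Aloxe3 read 23.5 on the transgenic and 27.9 on the wild-type array (log2 ratio -0.25).

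In the list of acylceramide and barrier lipid handling, to which Abca12 and Alox12b belong, most ratios were small. Of its 15 genes measured on 1 array or both, Abca12 included, 11 had a ratio under 1 and 4 above 1, beside 48.7% under 1 among all 14045 such genes. Of the 13 measured on both arrays, 0 passed 2-fold, and the median of -0.13 became 0.06 at equal spiked controls, so that no direction is given for the list. Pnpla1, which transfers linoleate to make acylceramide, read 343 on the transgenic and 536 on the wild-type array (log2 ratio -0.65), and Abhd5, its activator, read 615 on the transgenic and 787 on the wild-type array (-0.36). Nipal4, a membrane protein whose loss in humans causes ichthyosis, read 329 on the transgenic and 462 on the wild-type array, a log2 ratio of -0.49 with -0.51 at its other probe set. Lipk, a lipase, had -0.65 and Acer1, the alkaline ceramidase of the epidermis, -0.28 with -0.64 at its other probe set. Besides Abca12, the genes with a ratio above 1 were Lipm, Cyp4f39 and Alox12e. Their log2 ratios were 0.24 for Lipm, with -0.11 at its other probe set, 0.22 for Cyp4f39 and 0.01 for Alox12e. Fa2h, which hydroxylates the fatty acids of ceramides, was not measured on the transgenic array and read 50.6 on the wild-type array, at least 4.82-fold lower. It rests on 1 probe set, and of 1048 genes measured on the wild-type array only, 153 (14.6%) lay 2-fold or more over the floor.

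**Figure D3:**
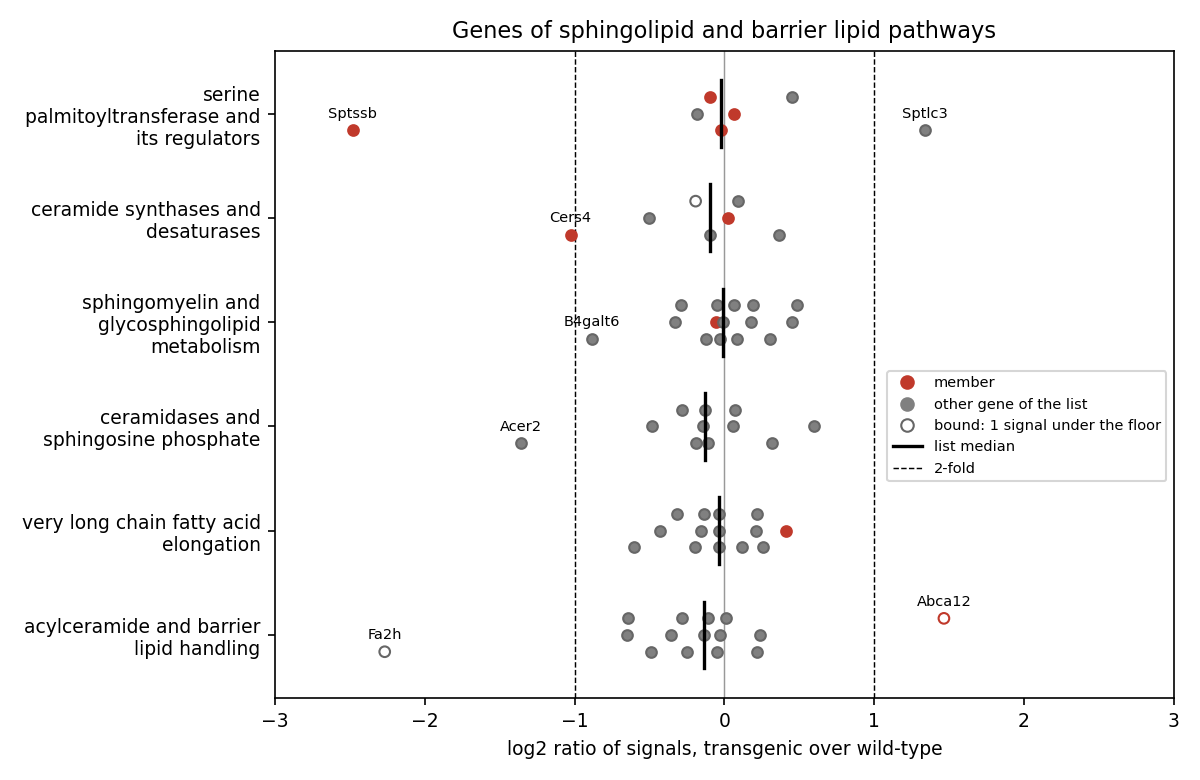
The log2 ratio, transgenic over wild-type, of each gene over the floor in 6 pathway lists (rows), with members in red, other genes in grey, bounds as open circles and the list median as a black bar. The medians lie between -0.13 and -0.01, and the genes past the 2-fold lines with both signals above the floor are Sptssb, Cers4, Acer2 and, on the higher side, Sptlc3.

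In the metabolism of sphingomyelin and glycosphingolipids, 0 of 15 measured genes passed 2-fold at their brightest probe set, and the median log2 ratio was -0.01, or 0.19 at equal spiked controls. B4galt6, which adds galactose to glucosylceramide, had the lowest ratio, with 169 on the transgenic and 312 on the wild-type array (-0.89). Its other probe sets gave -1.65, -0.75 and -0.41, so that all 4 had ratios under 1 and 1 passed 2-fold. Smpd3, a neutral sphingomyelinase, went the other way, with 124 on the transgenic and 90.8 on the wild-type array (0.45), and 0.82 and 1.23 at dimmer probe sets. Sgms1, a sphingomyelin synthase, had 0.49 at its brightest probe set and -0.15 and -0.21 at the others measured on both arrays. Gba2, a glucosylceramidase, had -0.33.

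Among 11 genes that break ceramide down or handle sphingosine phosphate, 1 was lower by 2-fold or more and 0 higher. Acer2, a ceramidase of the Golgi, read 35.4 on the transgenic and 90.9 on the wild-type array, a log2 ratio of -1.36, and its other probe set was measured on neither array. Sphk1, which makes sphingosine phosphate, read 137 on the transgenic and 90.2 on the wild-type array (0.60), and Sgpl1, the lyase that ends the pathway, read 250 on the transgenic and 350 on the wild-type array, a log2 ratio of -0.48 with -0.41 at its other probe set. The median of -0.13 became 0.07 at equal spiked controls. Taking the 6 lists together without the members, 1 of 55 genes measured on both arrays was higher and 1 lower by 2-fold, together 3.64%, near the 3.18% over all genes.

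The genes nearest to Sptssb in the plane of both log2 signals were found among the other genes measured on both arrays, and likeness over 2 arrays is a weak measure. In order of distance they were Tchhl1, a relative of trichohyalin (365 on the transgenic and 1296 on the wild-type array), Sprr1b, a cornified envelope protein (321 transgenic and 1846 wild-type), S100a8, a calcium-binding protein (411 transgenic and 1671 wild-type), Sprr2h, of the family of Sprr1b (390 transgenic and 1888 wild-type), and Pdxdc1 (339 transgenic and 673 wild-type). Their distances ran from 0.75 to 1.07 log2 units, and since the distance sets signals of different probe sets side by side, it describes position on the arrays and nothing else. Low ratios among these genes follow from how they were picked.

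Markers of the cells in the follicle were bright where the label calls for it. Hair shaft and inner root sheath markers summed to 94092 on the transgenic and 93848 on the wild-type array, and 12 of 13 lay under 2-fold apart, the exception being Krt84. Markers of the granular layer, the cells that make barrier lipids in epidermis, summed to 8121 on the transgenic and 11562 on the wild-type array over 14 genes with a probe set, of which 10 were measured. Of these, 2 were lower by 2-fold, Ivl (683 on the transgenic and 3110 on the wild-type array) and Sprr1b, 0 were higher, 8 were between and 4 (Flg, Hrnr, Krt1 and Krt2) were measured on neither array. Krt10, a keratin of the suprabasal epidermis, read 225 on the transgenic and 150 on the wild-type array, and Lor, loricrin, read 130 on the transgenic and 78.6 on the wild-type array. Sptssb was thus lower together with Ivl and Sprr1b, while Krt10 and Lor had ratios above 1. The lower granular layer sum on the transgenic array came from Ivl and Sprr1b. Of the 10 measured genes of that list, 6 had a ratio above 1, and the median log2 ratio was 0.09. Sebocyte markers, which include lipid genes, summed to 3023 on the transgenic and 3347 on the wild-type array, with 0 of 7 past 2-fold. Markers of the outer root sheath and basal layer summed to 18777 on the transgenic and 22379 on the wild-type array. Of their 10 ratios, 9 were under 1, beside 48.7% over all genes measured on 1 array or both, and 0 passed 2-fold. The median log2 ratio was -0.19. Equal spiked controls shifted the median over all genes by 0.18, so no direction is given for this list. Markers of dermis, vessels and fat summed to 6848 on the transgenic and 8823 on the wild-type array, most of it Fabp4, with 1 gene higher and 1 lower by 2-fold. The higher was Cdh5, a vessel marker (42.3 on the transgenic and 13.7 on the wild-type array, the latter near the floor). The lower was Adipoq, of fat cells (65.3 on the transgenic and 139 on the wild-type array). Col1a1, Col1a2 and Col3a1 had log2 ratios from 0.24 to 0.36 at their brightest probe sets. Their other probe sets gave 0.93 for Col1a1, 0.60 for Col1a2 and -0.26 for Col3a1. Immune markers summed to 172 on the transgenic and 105 on the wild-type array, with 4 of 8 measured on neither array, among them Ptprc. Of the 4 measured, Cd74 was higher by 2-fold, by a small margin and with the wild-type signal near the floor (22.9 on the transgenic and 11.2 on the wild-type array). Lyz2 had a log2 ratio of 0.60 and Cd68 -0.19. The brightest H2-Aa probe set passed the floor on the transgenic array only, which sets a bound of 4.04-fold on the higher side. Its 2 other probe sets over the floor on 1 array or both gave smaller log2 ratios, 0.74 and 0.77, which may also be bounds. Melanocyte markers summed to 12741 on the transgenic and 13794 on the wild-type array, with 0 of 6 past 2-fold. No sum of these cell type lists was 2-fold apart, and their part in the results was not tested.

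**Figure D4:**
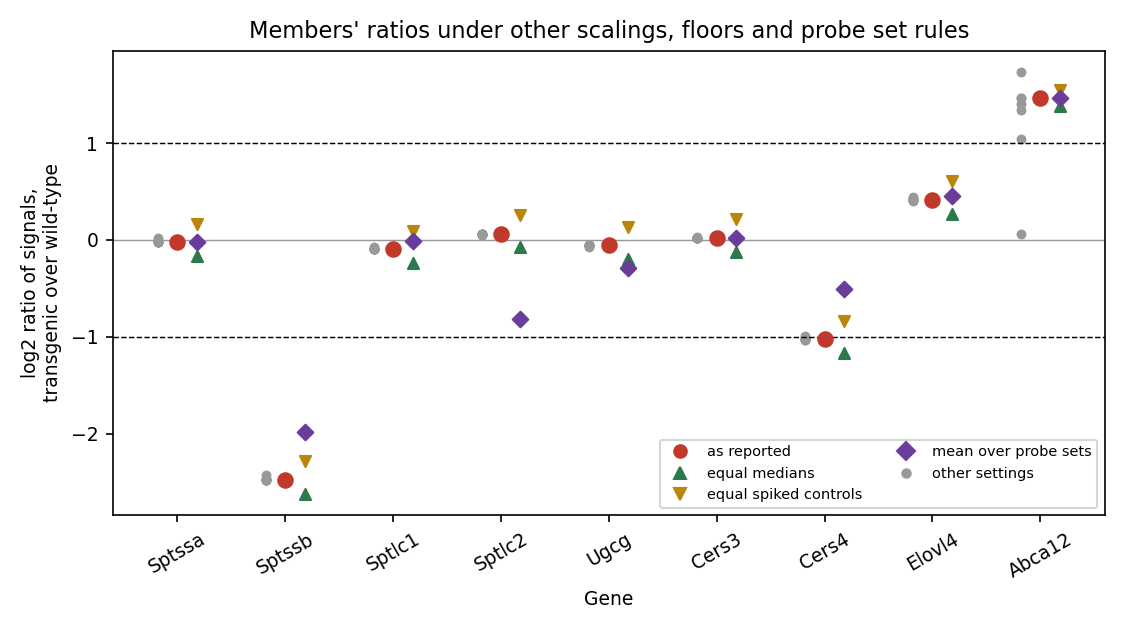
The log2 ratio, transgenic over wild-type, of each member measured on 1 array or both, as reported (red), under the scaling to equal medians, the scaling to equal spiked controls and the mean over probe sets (coloured symbols), and under the other settings (grey). Sptssb stays between -2.62 and -1.98, Cers4 crosses the 2-fold line in some settings, and the members near 0 change sign with the scaling.

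Across 11 other settings of scaling, floor and probe set rule, the Sptssb log2 ratio lay between -2.62 and -1.98 and stayed past 2-fold in all 11. The Cers4 ratio lay between -1.17 and -0.51 and was past 2-fold in 8 of 11. The signs of Sptssa, Sptlc1, Sptlc2, Ugcg and Cers3 each changed in at least 1 setting, so that no direction is given for them. Elovl4 kept a ratio above 1 in all 11 settings, without reaching 2-fold in any. The other floors lay under both signals of Sptssb, Cers4 and Elovl4 and could not change their ratios. Leaving out probe sets of kinds that can match further transcripts could not change them either. The counts of settings are therefore no measure of how firm these ratios are.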

How the data were processed

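Expression was measured on 2 Affymetrix arrays, 1 of dnFGFR2-IIIb transgenic and 1 of wild-type follicles. The deposited values are linear intensities, 1 for each probe set, and they show that the authors scaled each array to a 2% trimmed mean of 100. The summary algorithm is not given in the sources used here. Such scaling hides a shift shared by all genes.

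Of 45101 probe sets, the 64 controls were set aside, and the arrays were brought to an equal 2% trimmed mean. Of the remaining 45037, 34945 had 1 gene symbol in the platform annotation, 932 had several, which were not used for names, and 9160 had none. The identifiers of all 10 members matched RefSeq (GRCm38.p6). Signals under the floor, the 40th percentile, were set to it before ratios were taken, which gives bounds. The mean over probe sets averaged the signals before this step. In the pseudocount setting the floor was added to both signals in its place. The fold rule was checked on signals with planted changes past 2-fold and added noise smaller than the spread between probe sets. That checks the code and does not give the error rate of the rule on these arrays. Python 3.11.15, pandas 2.3.3, scipy 1.17.1 and statsmodels 0.14.6 (loess, span 0.3) were used, and spiked scaling used 18 control probe sets.

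The members and lists were chosen with earlier results of these data known. Named were all members, the genes past 2-fold or up to 4 with the largest ratios per list, the 5 genes nearest to Sptssb, and defining markers. Alternatives were other scalings, floors, thresholds and probe set rules. Having only 2 arrays limits the precision of all values.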

Additional observations from a re-analysis of the deposited data

How the results depend on the processing

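The counts over all genes moved with the settings. They were 115 higher and 296 lower at equal medians, 119 higher with loess, and 315 and 103 at equal spiked controls. They were 845 and 685 with the floor at the 20th percentile, 50 and 61 at the 60th, and 22 and 37 with a floor of 50. They were 478 and 377 with a pseudocount, 294 higher with the mean over probe sets, 735 and 784 at 1.5-fold, 27 and 40 at 3-fold, and 576 and 381 when probe sets were counted. The median log2 ratio over all genes shifted by -0.14 at equal medians and by 0.18 at equal spiked controls. Of the members, 1 was at least 2-fold lower, in place of 2, at equal spiked controls, with a pseudocount, with the mean over probe sets and at 3-fold, and in each the one that stayed was Sptssb. One member, Abca12, was at least 2-fold higher, in place of 0, with the floor at the 20th percentile and with a pseudocount. The Sptssb log2 ratio was -1.98 with the mean over probe sets, and the other 10 settings moved it by less than the SD of 0.40 between probe sets of the same gene. Several of those settings, such as the other floors, could not move it. With the mean over probe sets, Sptlc2 gave -0.82, which drew on a signal under the floor, and Cers4 -0.51. The medians of the members and of the 6 pathway lists moved by less than that SD in all 11 settings but became positive at equal spiked controls. No paired analysis was possible because each group holds 1 array, and for the same reason no array could be left out. Signals near the floor are close to background, which limits Abca12, Alox12b, Sptlc3 and Fa2h, and among the markers Cdh5 and Cd74.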

Other observations

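The genes beside Sptssb and Cers4 on their chromosomes were taken in the RefSeq order as the nearest protein-coding genes with a probe set. They were chosen after the values were seen, several were near or under the floor, and a shared shift was not tested. Beside Sptssb, Nmd3, which serves the export of large ribosomal subunits, read 339 on the transgenic and 286 on the wild-type array (log2 ratio 0.25). B3galnt1, a glycosyltransferase of globoside synthesis, read 12.6 on the transgenic and 24.4 on the wild-type array (-0.95), near background. On the other side Slitrk3 was measured on neither array, and Bche read 11.3 on the transgenic and 5.50 on the wild-type array. Beside Cers4, the RNA-binding protein gene Elavl1 had a log2 ratio of -0.08, the chemokine gene Ccl25 0.47, Zfp958 0.35 and Shcbp1 -0.06. The log2 ratios were -2.48 at Sptssb and -1.03 at Cers4.

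Probe sets of the same pathway gene disagreed widely in Acer3, an alkaline ceramidase. It read 363 on the transgenic and 345 on the wild-type array at its brightest probe set (log2 ratio 0.07). At 1459771_x_at, of a kind that can match further transcripts, it read 113 on the transgenic and 43.0 on the wild-type array (1.40). Probe set 1453179_at read 32.1 on the transgenic and 20.4 on the wild-type array (0.65), and 1429520_a_at gave -0.05.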
